A study of Mus musculus with 10 samples.

Results

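The 65 genes described here encode core proteins of the spliceosome's small nuclear ribonucleoproteins (snRNPs), related LSM proteins, and the SR and hnRNP proteins that steer splice site choice. They were chosen by symbol alone, as every gene whose name begins with Snrp, Lsm, Sf3a, Sf3b, Srsf or Hnrnp followed by its number or letter, out of 24608 gene symbols in the count table. Of these, 34 were core snRNP/LSM genes, 11 were SR genes and 20 were hnRNP genes. The core snRNP/LSM family, called core here, includes 6 LSM genes whose products act outside the spliceosome's snRNPs. Symbols ending in -ps, of which there were 2, were left out by the rule. The low-count filter kept 58 of the 65 members (29 core, 9 SR and 20 hnRNP) among 7753 genes tested, and the 7 others are given by their counts. The members lie on 18 chromosomes, so they are not a gene cluster.

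Expression was measured by RNA-seq in muscle stem cells (MuSCs), the Pax7-expressing satellite cells that rebuild muscle fibres, 3 days after cardiotoxin (CTX) injury of skeletal muscle. The control mice were Trpm7+/+ and the Trpm7 cKO mice Trpm7flox/flox for the gene of an ion channel fused to a kinase, with 5 libraries of each genotype. Both genotypes carried 1 Pax7CreERT2 allele and the Rosa26YFP reporter, and both received 5 daily injections of tamoxifen (TMX), so that Cre and TMX were shared by the groups while the floxed alleles were not. All were adult C57BL6 mice with age-matched controls, and the sex and exact age of the mice behind each library were not given in the sources used here. The Pax7 locus drove Cre, which limits the deletion to cells that expressed Pax7 when TMX was given. Each library was made from 3000 YFP-positive sorted cells by CEL-Seq2, which counts 1 molecule once, near its 3′ end.

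Splicing removes introns in a cycle of snRNP particles, each built from a small nuclear RNA, a ring of Sm or Lsm proteins and particle-specific proteins such as the SF3A and SF3B subunits that seat the U2 snRNP on the branch point. SR proteins mostly bind exons and recruit the snRNPs, whereas hnRNP proteins coat the pre-mRNA and often block or redirect the same sites. Many SR and hnRNP genes limit their own output through poison exons or retained introns. Counts at the 3′ end do not show which exons a transcript holds.

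Depth and composition differed between the genotypes. Control libraries held 914361 to 1097709 counts and Trpm7 cKO libraries 205986 to 581121, every Trpm7 cKO library being smaller than every control library, and the members took 14738 to 18053 counts in control against 2307 to 8412 in Trpm7 cKO libraries. Counts of Trpm7 itself did not separate the genotypes, its log2 fold change being -0.09 ± 0.20 (SE) by edgeR, adjusted p = 0.723. Which part of the gene is floxed is not given in the sources used here, and counts from the 3′ end do not show whether it is present. For these libraries the genotypes are thus as labelled. The study reported the deletion from a gel of PCR products, from Trpm7 mRNA in freshly isolated MuSCs and from TRPM7 immunofluorescence in MuSCs on myofibres. It also reported lower cytosolic magnesium in Trpm7 cKO MuSCs 3 days after CTX injury. MuSC identity markers were present in both groups, 3 of 17 tested being lower and 8 higher in Trpm7 cKO (summed normalized CPM, which are counts scaled by library size with TMM factors, 4250.1 to 4976 in control and 3791 to 7062 in Trpm7 cKO libraries). Of 11 tested markers of activated and differentiating myogenic cells 7 were lower and 2 higher, summed CPM being 2867 to 3737 in control and 1104 to 1912 in Trpm7 cKO libraries. Leukocyte markers were higher in Trpm7 cKO for 26 of the 26 markers tested (39 in the table), summed CPM being 491 to 818 in control and 1711 to 7340.1 in Trpm7 cKO libraries. Cxcr2, Cd3e, Cd3d, Cd79a and Nkg7 were not among those tested. They were at 0 in every control library and at only 0 to 2 counts in the Trpm7 cKO libraries. Markers of proliferating cells were lower for 17 of 20, summed CPM being 3592 to 4988 in control and 1238 to 2520.2 in Trpm7 cKO libraries. Markers of other cell types in muscle were also higher, for 3 of 3 tested erythroid markers (summed CPM 1.99 to 178 in control and 146 to 3274 in Trpm7 cKO libraries), 3 of 3 endothelial markers (7.51 to 66.0 in control and 136 to 689.8 in Trpm7 cKO libraries) and 5 of 7 markers of fibroadipogenic progenitors, with 1 lower (2816 to 4719 in control and 3343 to 6231 in Trpm7 cKO libraries). The part of these marker lists in the results was not tested. Many leukocyte, endothelial and erythroid markers could pass the low-count filter only through the Trpm7 cKO libraries, where they were high. Fcgr3, Ccr2 and Eng, for example, had control means of 2.75, 2.31 and 1.69 CPM, whereas Lyz2 had 126. The counts of tested markers called higher in these lists thus partly follow from the filter. In these bulk libraries, fewer cells of a type and less RNA per cell cannot be told apart.

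The 3 families differed in how their members behaved. Core snRNP/LSM genes were lower or did not pass the test, whereas SR and hnRNP genes went both ways. By the quasi-likelihood F test of edgeR, adjusted by Benjamini-Hochberg over the 7753 genes, 13 of the 29 core genes tested fell in Trpm7 cKO MuSCs (adjusted p below 0.05) and 0 rose, 2 of 9 SR genes fell and 1 rose, and 6 of 20 hnRNP genes fell and 4 rose. Over all genes tested, 24.1% fell and 24.6% rose. The core family's share of 44.8% lower thus stood above the share of all genes, while the hnRNP shares of 30% lower and 20% higher and the SR shares of 22.2% and 11.1% were nearer to it. The core share includes 3 falls among 4 tested LSM genes that act outside the spliceosome's snRNPs. No core gene rose by DESeq2 or limma-voom either, and 0 had a higher level at an unadjusted p below 0.05. The median log2 fold change was -0.39 over the core genes, -0.15 over the SR genes and -0.01 over the hnRNP genes, against -0.01 over all genes tested.

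**Figure D1:**
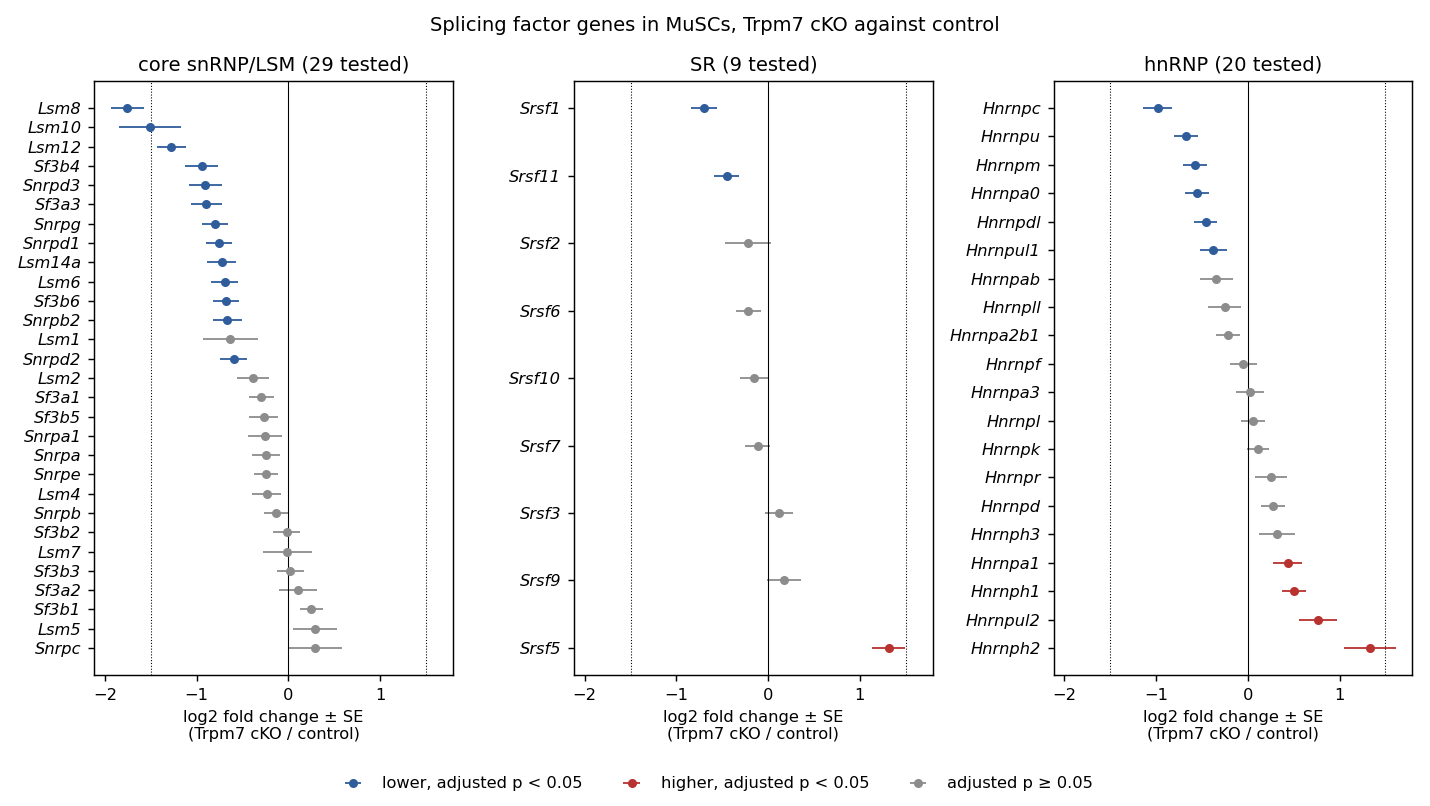
Log2 fold change of each tested member, Trpm7 cKO over control, with its SE from edgeR, in 3 panels for the core snRNP/LSM, SR and hnRNP families. Blue points fell and red points rose at an adjusted p below 0.05, grey points did not pass, and dotted lines stand at log2 fold changes of -1.5 and 1.5. The 13 coloured core points are all on the lower side, whereas the hnRNP panel holds 6 lower and 4 higher.

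Changes were moderate in size. With the study's second threshold, a log2 fold change beyond 1.5, 2 members were lower, both of the LSM group (Lsm8 and Lsm10), where 3.53% of all genes were, and 0 members were higher, where 8.49% of all genes were. DESeq2 and limma-voom also gave 2 lower and 0 higher, and 0 members passed 1.5 upwards at an unadjusted p below 0.05. Values were also read for overlap between the 5 control and 5 Trpm7 cKO libraries, which is another criterion than the test. For 15 of 29 core genes, 1 of 9 SR genes and 5 of 20 hnRNP genes every Trpm7 cKO value was below every control value, compared with 17.9% of all genes. For 0 core genes, 1 SR gene and 3 hnRNP genes every Trpm7 cKO value was above every control value, compared with 16.6% of all genes.

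The summed output of each family, in normalized CPM, is a view weighted by the most abundant members. The core sum was 5860.0, 5266, 5425, 5218 and 5236 in control replicates 1 to 5 and 3651, 3982, 4030.1, 4126 and 3775 in Trpm7 cKO replicates 1 to 5. The hnRNP sum was 8963, 8509.8, 8599, 8593 and 8791 in control and 7195, 7512, 7019, 7213 and 6766 in Trpm7 cKO libraries. Both sums were lower in every Trpm7 cKO library than in any control library, although the hnRNP median fold change was near 0, and Hnrnpu and Hnrnpc, which had the highest control levels of the hnRNP genes, were lower. The SR sum was 3129, 3045, 2962, 2792 and 3034 in control and 3064, 2926, 2642, 2599.7 and 2191 in Trpm7 cKO libraries, and these ranges overlapped. Means were 5401 ± 269 in control and 3913 ± 195 in Trpm7 cKO libraries (SD, n = 5 each) for the core, 8691 ± 183 in control and 7141 ± 275 in Trpm7 cKO libraries (SD, n = 5 each) for the hnRNP and 2993 ± 127 in control and 2684 ± 337 in Trpm7 cKO libraries (SD, n = 5 each) for the SR family. Leukocyte marker sums in the same Trpm7 cKO replicates 1 to 5 were 4261, 1711, 4289.6, 7340.1 and 6793 CPM, and their part in the family sums was not tested.

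**Figure D2:**
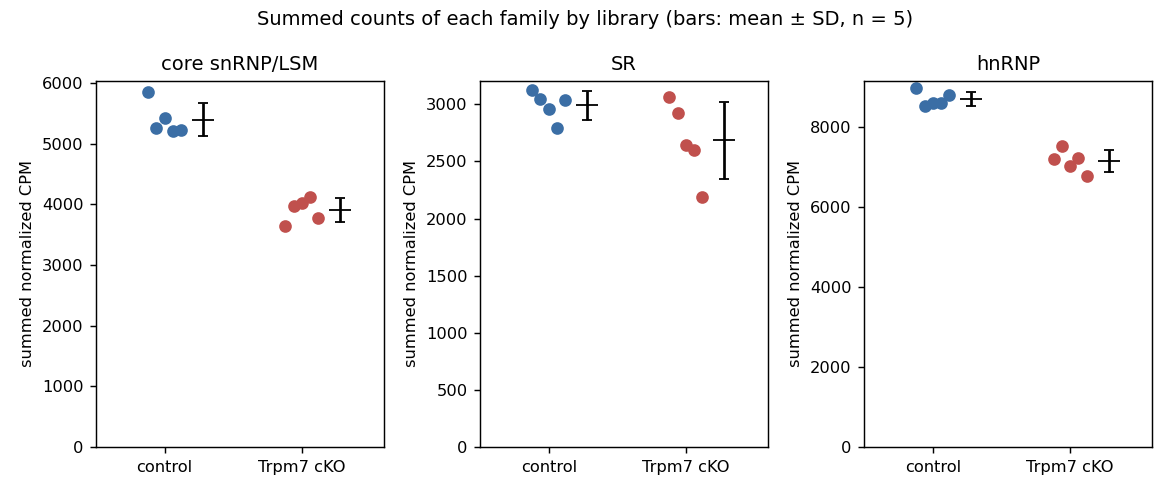
Summed normalized CPM of each family in each library (y axis, from 0), with the mean and SD of 5 libraries beside the points, for control (blue) and Trpm7 cKO (red). Core and hnRNP sums do not overlap between genotypes, and SR sums do.

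Within the members' own counts, which do not depend on how libraries are scaled, the core family gave way to the others. Core genes held 31.6% ± 0.732 of member counts in control and 28.5% ± 1.52 in Trpm7 cKO libraries (SD, n = 5 each), a range of 30.7% to 32.6% against 26.2% to 29.6% that did not overlap. The SR share was 17.5% ± 0.480 in control and 19.5% ± 1.80 in Trpm7 cKO, and the hnRNP share 50.9% ± 0.750 and 52.0% ± 0.705, with overlapping ranges for both.

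Among the core genes, the Sm ring, the 7 proteins that close around the U1, U2, U4 and U5 snRNAs, fell in 4 of its 6 tested genes. Snrpd3 (SmD3) stood at 125, 104, 94.4, 78.3 and 92.6 CPM in control and 48.0, 49.7, 69.4, 46.4 and 60.7 in Trpm7 cKO libraries (log2 fold change -0.91 ± 0.18 (SE), adjusted p = 0.000405). Snrpg (SmG) stood at 452, 360.4, 429, 388 and 426 in control and 237, 247, 256, 254 and 171 in Trpm7 cKO (log2 fold change -0.80 ± 0.14 (SE), adjusted p = 8.24e-05), and Snrpd1 (SmD1) at 415, 387, 356, 341 and 388 and 187, 252, 197, 262 and 209.7 (log2 fold change -0.76 ± 0.14 (SE), adjusted p = 0.000157). In all 3 the lowest control library was above the highest Trpm7 cKO library. Snrpd2 (SmD2) also fell, by 0.60 ± 0.15 (SE) on the log2 scale. The other tested ring genes did not pass the test: Snrpb (SmB), which had 292 to 338 CPM in control and 248 to 326 in Trpm7 cKO, and Snrpe (SmE), with 211 to 257 and 172 to 208. Snrpe had separate ranges and passed by DESeq2 (-0.33, adjusted p = 0.0342). For Snrpe, 41.5% of the last 500 transcript bases are shared with other loci, so its counts are uncertain.

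The particle-specific proteins were divided. Snrpb2, the U2B″ protein of the U2 snRNP, fell, with 320.2, 345, 301, 281 and 317 CPM in control and 149.7, 167, 259, 199 and 232 in Trpm7 cKO libraries (log2 fold change -0.67 ± 0.15 (SE), adjusted p = 0.00135) and no overlap. Its partner Snrpa1 had a log2 fold change of -0.26 ± 0.18 (SE) and the U1 snRNP genes Snrpa and Snrpc -0.25 ± 0.15 and 0.29 ± 0.29, none of which passed the test. Snrpc had the highest log2 fold change of the core family together with Lsm5 (0.29 ± 0.24). A large part of the 3′ end is shared with other loci in each of Snrpa (60.6%), Lsm5 (46.3%) and Snrpc (42.1%).

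Of the 9 SF3A and SF3B genes, whose products hold the U2 snRNP at the branch point, 3 fell and 0 rose. Sf3b4, which contacts the pre-mRNA beside the branch point, had 229.7, 166, 232, 228 and 176 CPM in control and 116, 121, 69.4, 133 and 71.7 in Trpm7 cKO libraries (log2 fold change -0.94 ± 0.18 (SE), adjusted p = 0.000234). Sf3a3 had 127, 119, 120.1, 112 and 112 and 46.2, 84.7, 62.1, 64.6 and 55.2 (log2 fold change -0.89 ± 0.17 (SE), adjusted p = 0.000192). Sf3b6, which touches the branch point adenosine, had 255, 230.3, 268, 242 and 213 and 142, 164, 113, 176 and 149 (log2 fold change -0.68 ± 0.15 (SE), adjusted p = 0.000647). These 3 genes separated the genotypes without overlap. Part of the 3′ end is shared with other loci in Sf3b4 (15.3%) and Sf3a3 (12.1%). Sf3b1, the large scaffold of the complex and the core gene with the most counts, went the other way in value, at 464, 429, 512, 481 and 476 in control and 580.2, 558, 577, 474 and 624 in Trpm7 cKO, but did not pass the test (log2 fold change 0.25 ± 0.13 (SE), adjusted p = 0.114). It passed without Trpm7 cKO replicate 4 (0.30, adjusted p = 0.0409) and with libraries scaled on total counts (0.33, adjusted p = 0.0446), and was -0.045 with libraries scaled on MuSC identity genes. Sf3a1, Sf3a2, Sf3b2, Sf3b3 and Sf3b5 ranged from -0.30 to 0.10 and none passed, but Sf3a1 did by DESeq2 (-0.38, adjusted p = 0.0326).

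Among the tested members, the lowest log2 fold changes were those of LSM genes. Lsm8, the subunit that marks the nuclear Lsm2 to Lsm8 ring on U6 snRNA, stood at 215, 161, 202, 232 and 184 CPM in control and 57.3, 71.8, 54.8, 64.6 and 27.6 in Trpm7 cKO libraries (log2 fold change -1.76 ± 0.18 (SE), adjusted p = 2.71e-07). The highest Trpm7 cKO value was thus below the lowest control value. Lsm6, shared by the nuclear ring and by the cytoplasmic Lsm1 to Lsm7 ring that acts in mRNA decay, had 239 to 325 CPM in control and 142 to 202 in Trpm7 cKO libraries (log2 fold change -0.70 ± 0.15 (SE), adjusted p = 0.000595). The other shared subunits did not pass the test: Lsm2 (-0.39 ± 0.18), Lsm4 (-0.24 ± 0.16), Lsm5 and Lsm7 (-0.01 ± 0.27). Of the Lsm7 3′ end 65.1% is shared with other loci, so that its counts, like those of Lsm5, are uncertain. In all, 2 of 6 tested genes of the nuclear ring fell.

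Lsm10, part of the U7 snRNP that cuts the ends of histone pre-mRNAs, had 45.7, 35.1, 51.5, 48.2 and 33.6 CPM in control and 24.0, 11, 3.65, 21.5 and 0 in Trpm7 cKO libraries (log2 fold change -1.51 ± 0.34 (SE), adjusted p = 0.000958). These rest on 13, 6, 1, 13 and 0 counts in the Trpm7 cKO libraries, and the 0 of 205986 in replicate 5 allows a level of up to 16.6 CPM (3 counts, counting error only). Its log2 fold change lay at the 1.5 threshold and was -1.15 to -1.91 across the alternatives. Lsm12, an Lsm-domain protein outside the rings, had 346, 258, 308, 248 and 215 CPM in control and 113, 109, 135, 114 and 93.8 in Trpm7 cKO (log2 fold change -1.28 ± 0.16 (SE), adjusted p = 2.57e-06). Lsm14a, a protein of cytoplasmic processing bodies, had 198 to 291 and 105 to 177 (log2 fold change -0.73 ± 0.16 (SE), adjusted p = 0.000759), again without overlap. Lsm1, which marks the cytoplasmic ring, had 34, 33, 46, 37 and 29 counts in control and 20, 12, 6, 15 and 0 in Trpm7 cKO libraries and did not pass (log2 fold change -0.63 ± 0.30 (SE), adjusted p = 0.0848), but did so without Trpm7 cKO replicate 1 (-0.90, adjusted p = 0.0295).

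The promoters of Lsm8 and Lsm10, the 2 members past both thresholds, are shown as their RefSeq windows on GRCm38.p6, 250 bases before to 50 bases after the start, both from the + strand. Lsm8 (chr6:18848385-18848684) has 4 exons in its gene span chr6:18848579-18855751, + strand, and Lsm10 (chr4:126096403-126096702) has 2 exons in chr4:126096623-126098584, + strand. Capitals mark matches on either strand to 5 motifs chosen with the values known: the NRF1 motif GCATGCGC, the ETS motif CCGGAAG, the CCAAT box CCAAT, the E-box CACGTG and the TATA box TATAAA. No motif of these contains another.
Lsm8: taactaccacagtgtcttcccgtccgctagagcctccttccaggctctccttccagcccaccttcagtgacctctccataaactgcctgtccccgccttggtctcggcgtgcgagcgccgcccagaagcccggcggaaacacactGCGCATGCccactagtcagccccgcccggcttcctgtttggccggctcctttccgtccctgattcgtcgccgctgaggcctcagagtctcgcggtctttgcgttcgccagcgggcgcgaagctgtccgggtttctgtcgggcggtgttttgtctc
Lsm10: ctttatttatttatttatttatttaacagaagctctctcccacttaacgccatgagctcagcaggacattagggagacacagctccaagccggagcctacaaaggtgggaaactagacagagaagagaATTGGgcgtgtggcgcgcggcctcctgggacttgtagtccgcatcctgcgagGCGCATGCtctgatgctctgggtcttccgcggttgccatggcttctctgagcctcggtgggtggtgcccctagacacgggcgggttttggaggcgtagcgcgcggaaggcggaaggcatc
Both hold the NRF1 letters, here as the reverse complement, beginning 105 bases before the Lsm8 start and 70 bases before the Lsm10 start, and Lsm10 also has a CCAAT box. NRF1 (nuclear respiratory factor 1) is a transcription factor known for mitochondrial and growth genes. The letters stand in 6 of the 56 member windows (10.7%), in 6.73% of the windows of genes tested and in 3.05% of all 27025 windows. They are also in the windows of Lsm2, Hnrnph1, Srsf11 and Srsf7, which did not move together. The ETS letters were in 11 of 27 core windows (40.7%) and 2 of 18 hnRNP windows (11.1%) against 22.5% of tested genes, and the CCAAT letters in 13 of 18 hnRNP windows (72.2%) against 42.6%. These matches are a description of the letters and not of binding.

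The SR family had few changes and 1 clear rise. Srsf5 (SRp40), an SR protein known from regenerating liver, had 78.6, 94.0, 59.0, 76.3 and 77.6 CPM in control and 146, 182, 267, 161 and 232 in Trpm7 cKO libraries (log2 fold change 1.31 ± 0.18 (SE), adjusted p = 5.98e-06). Every Trpm7 cKO library was above every control library. Srsf1 (ASF/SF2), a general activator of constitutive and alternative splicing, moved the opposite way, with 675, 709, 637, 551 and 655 in control and 403, 480.3, 318, 436 and 337 in Trpm7 cKO (log2 fold change -0.70 ± 0.14 (SE), adjusted p = 0.000421), also without overlap. Srsf11 fell as well, with 439, 407, 425, 456 and 377 in control and 379, 283, 314, 285 and 270.4 in Trpm7 cKO (log2 fold change -0.45 ± 0.13 (SE), adjusted p = 0.00883), with Trpm7 cKO replicate 1 reaching into the control range.

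The other 6 tested SR genes did not pass the test. Srsf3, the SR gene with the most counts, stood at 696, 705, 638, 630.4 and 711 CPM in control and 961, 859, 628, 678 and 508 in Trpm7 cKO libraries (log2 fold change 0.12 ± 0.16 (SE), adjusted p = 0.562). Its Trpm7 cKO values spread from below all control values to above them, and the sign of its fold change turned without replicate 1. Srsf9 (0.18 ± 0.19), Srsf7 (-0.12 ± 0.14), Srsf10 (-0.15 ± 0.16), Srsf6 (-0.22 ± 0.14) and Srsf2 (-0.22 ± 0.25) overlapped between genotypes. Srsf2 counts cannot be told apart from those of Mettl23 without strand, since 91.5% of its 3′ end is shared with that gene on the opposite strand. The pseudogene Srsf3-ps, outside the rule, had 13.1 to 125 CPM in control and 58.0 to 296 in Trpm7 cKO libraries. The Srsf3 3′ end shared 0% with other annotated loci, but Srsf3-ps was not found in that annotation. Whether reads were split between Srsf3 and Srsf3-ps was thus not tested.

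The hnRNP family split by member. Hnrnpc, which binds uridine tracts and packages nascent RNA, stood at 1288, 1025, 1306, 1444 and 879 CPM in control and 626, 598, 468, 573 and 751 in Trpm7 cKO libraries (log2 fold change -0.98 ± 0.16 (SE), adjusted p = 4.41e-05). Hnrnpu, a nuclear scaffold protein that also binds pre-mRNA, stood at 1439.9, 1349.6, 1290.2, 1205 and 1335 and 829.6, 878, 807, 898 and 723 (log2 fold change -0.67 ± 0.13 (SE), adjusted p = 0.000193). Both had separate ranges, and with Hnrnpa2b1 they had the highest control levels of the family. Together these 3, picked by their control level, took 41.6% ± 1.65 of hnRNP counts in control and 33.2% ± 1.71 in Trpm7 cKO libraries (SD, n = 5 each). The 3 genes picked likewise took 23.4% ± 0.921 and 26.0% ± 1.33 of core counts. For the SR family these shares were 58.6% ± 1.56 and 55.2% ± 3.46. Hnrnpa2b1 had 1057, 1050.2, 1080.0, 1061 and 1250.3 CPM in control and 935, 1005, 881, 1089 and 806 in Trpm7 cKO and did not pass the test (log2 fold change -0.22 ± 0.13 (SE), adjusted p = 0.179), although it did by DESeq2 (-0.29, adjusted p = 0.0284).

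Hnrnpm, Hnrnpa0 and Hnrnpdl fell as well, without overlap. Hnrnpm, a splicing regulator that binds GU-rich RNA, had 682 to 844 CPM in control and 414 to 563 in Trpm7 cKO libraries (log2 fold change -0.58 ± 0.13 (SE), adjusted p = 0.00123). Hnrnpa0, of the A/B group, had 545 to 654 and 315 to 462 (log2 fold change -0.55 ± 0.13 (SE), adjusted p = 0.00183), and Hnrnpdl, a relative of the AU-rich element binding protein Hnrnpd, 538 to 698 and 413 to 495 (log2 fold change -0.46 ± 0.13 (SE), adjusted p = 0.00556). By edgeR, the call of the sixth, Hnrnpul1, a relative of Hnrnpu, rested on single libraries. It had 296, 298, 325, 308 and 315 CPM in control and 231, 258, 307, 229 and 155 in Trpm7 cKO (log2 fold change -0.37 ± 0.15 (SE), adjusted p = 0.0443), and passed with 1 library fewer only when Trpm7 cKO replicate 3 was left out (adjusted p = 0.0159). Without any one of the 9 others the adjusted p was 0.0522 to 0.092. With all libraries Hnrnpul1 passed by DESeq2 (-0.44, adjusted p = 0.00345) but not by edgeR with libraries scaled on total counts.

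Of the 4 hnRNP genes that rose, Hnrnph2 changed most. Hnrnph2 could pass the low-count filter only through the Trpm7 cKO libraries, where it was high. Its call thus partly follows from the filter. Hnrnph2 values are given with their counts. It had 12.9, 15.5, 12.9, 7.03 and 15 CPM in control and 40.7, 33.1, 32.9, 19.9 and 38.6 in Trpm7 cKO libraries (log2 fold change 1.33 ± 0.28 (SE), adjusted p = 0.000603), which rest on 13, 15, 12, 7 and 13 and 22, 18, 9, 12 and 7 counts. Hnrnph1, its closest relative and like it a reader of G runs, had 322, 347, 342, 334 and 418 and 517, 591, 479, 431 and 475 (log2 fold change 0.50 ± 0.13 (SE), adjusted p = 0.00415). Hnrnpul2 had 59.7, 51.6, 54.7, 33.1 and 74.1 and 73.9, 81.0, 113, 94.4 and 116 (log2 fold change 0.76 ± 0.21 (SE), adjusted p = 0.00437). The values of Hnrnph2 and Hnrnph1 did not overlap between genotypes, and those of Hnrnpul2 did only at control replicate 5 and Trpm7 cKO replicate 1. At its 3′ end Hnrnpul2 overlaps another annotated gene on the same strand (AC129217.1), and 26.0% of the 3′ end of Hnrnph1 is shared with Setd1b.

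Hnrnpa1, which silences exons, rose in the full set of libraries, with 138, 148, 106, 113 and 139 CPM in control and 152, 212, 208, 146 and 155 in Trpm7 cKO (log2 fold change 0.43 ± 0.16 (SE), adjusted p = 0.0291), but its ranges overlapped. The rise did not pass the test by DESeq2 (adjusted p = 0.0933) or without control replicate 3 (0.0844), control replicate 4 (0.0721), Trpm7 cKO replicate 2 (0.106) or Trpm7 cKO replicate 3 (0.0819). The other 10 hnRNP genes did not pass. Hnrnpk, which binds C-rich RNA, stood at 915, 956, 844, 896 and 1012 in control and 1107, 972, 965, 978 and 971 in Trpm7 cKO (log2 fold change 0.11 ± 0.12 (SE), adjusted p = 0.48). Hnrnpd was higher in every Trpm7 cKO library (310.4 to 417) than in any control library (273 to 300.3) but had an adjusted p of 0.0855. Hnrnpab, Hnrnpll, Hnrnpf, Hnrnpa3, Hnrnpl, Hnrnpr and Hnrnph3 ranged from -0.34 to 0.32, all with overlap. Hnrnpab and Hnrnph3 overlap Phykpl and Rufy2 on the opposite strand, and 84.9% of the Hnrnpa3 3′ end is shared with other loci, so the counts of these 3 are uncertain. Hnrnph3 passed without Trpm7 cKO replicate 4 (0.47, adjusted p = 0.046).

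**Figure D3:**
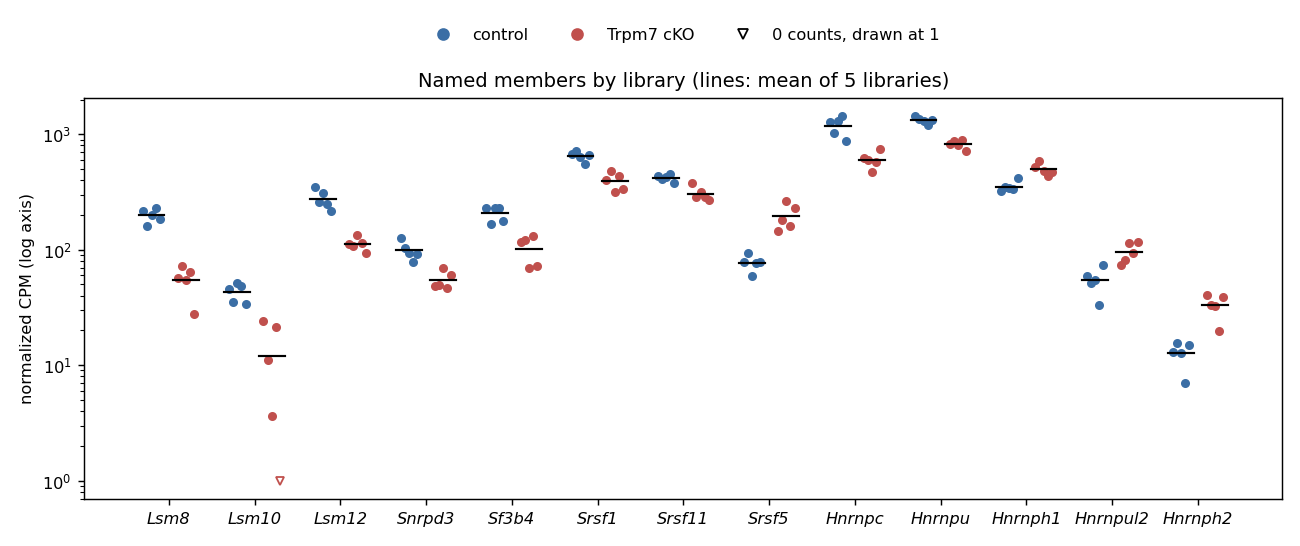
Normalized CPM (log axis) of 13 members in each control (blue) and Trpm7 cKO (red) library, with black lines at the mean of 5 libraries and an open triangle at 1 for a library with 0 counts. Lsm8, Lsm10, Lsm12, Hnrnpc and Hnrnpu lie lower in every Trpm7 cKO library, and Srsf5, Hnrnph1 and Hnrnph2 higher.

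Windows are shown for the SR and the hnRNP gene with the highest log2 fold change and for the hnRNP gene with the lowest, with the same motifs in capitals. Srsf5 (chr12:80945249-80945548, + strand) and Hnrnph2 (chrX:134600929-134601228, + strand) have 8 and 3 exons, and Hnrnpc (chr14:52103972-52104271, printed 5′ to 3′ from the - strand) has 9.
Srsf5: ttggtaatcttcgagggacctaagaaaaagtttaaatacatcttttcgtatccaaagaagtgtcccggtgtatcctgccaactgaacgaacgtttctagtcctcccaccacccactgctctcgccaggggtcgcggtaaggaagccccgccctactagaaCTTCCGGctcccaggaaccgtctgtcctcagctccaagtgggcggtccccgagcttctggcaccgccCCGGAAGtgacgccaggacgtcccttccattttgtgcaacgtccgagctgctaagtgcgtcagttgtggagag
Hnrnph2: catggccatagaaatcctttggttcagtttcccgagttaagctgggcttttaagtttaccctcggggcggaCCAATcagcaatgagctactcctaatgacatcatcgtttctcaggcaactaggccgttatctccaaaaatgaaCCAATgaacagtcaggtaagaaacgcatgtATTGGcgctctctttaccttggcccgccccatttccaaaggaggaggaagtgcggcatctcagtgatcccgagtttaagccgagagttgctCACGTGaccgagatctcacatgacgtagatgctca
Hnrnpc: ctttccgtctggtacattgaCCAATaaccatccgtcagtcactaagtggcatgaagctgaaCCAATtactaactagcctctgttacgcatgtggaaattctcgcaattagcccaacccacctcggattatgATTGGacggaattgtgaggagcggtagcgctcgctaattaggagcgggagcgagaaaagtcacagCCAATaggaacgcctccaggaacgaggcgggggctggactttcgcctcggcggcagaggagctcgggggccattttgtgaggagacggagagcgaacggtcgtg
Srsf5 holds 2 ETS matches, beginning 90 and 23 bases before the start. Hnrnph2 holds 3 CCAAT matches and an E-box that begins at position 16 after the start. Hnrnpc holds 4 CCAAT matches, the nearest 54 bases before the start, so the CCAAT letters were found in an hnRNP gene that rose and in one that fell.

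Ratios of 2 members within a library are free of scaling, and 9 of 12 pairs could be tested. The pairs were chosen as relatives or as marks of rival complexes, with earlier results of these data known. Each was compared as the log2 ratio of counts with an exact permutation test over the 10 libraries (two-sided, smallest possible p 0.00794), adjusted over the 9 pairs. The p-values do not account for that choice of pairs. Relatives that moved apart included Hnrnpul2 against Hnrnpul1, whose log2 ratio was -2.30, -2.52, -2.56, -3.20 and -2.08 in control and -1.63, -1.66, -1.42, -1.27 and -0.41 in Trpm7 cKO libraries, a difference of 1.25 (exact p = 0.00794, adjusted p = 0.0179). Hnrnph2 against Hnrnph1 was -4.59, -4.44, -4.68, -5.47 and -4.74 in control and -3.64, -4.12, -3.79, -4.38 and -3.53 in Trpm7 cKO, a difference of 0.89 with the same p values. Thus Hnrnph2 rose more than Hnrnph1, and the ranges of both ratios were separate. Srsf9 against Srsf1 rose by 0.89 and Hnrnpdl against Hnrnpd fell by 0.72, each with separate ranges and the same p values. Hnrnpa2b1 against Hnrnpa1 (-0.66) and Snrpb2 against Snrpa (-0.42) were lower with overlap (exact p = 0.0159, adjusted p = 0.0238).

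The remaining pairs did not pass. Lsm1 against Lsm8, the subunits that mark the cytoplasmic and the nuclear Lsm ring, was -2.65, -2.22, -2.02, -2.63 and -2.43 in control and -0.62, -1.66, -1.25, -1.35 and -3.46 in Trpm7 cKO libraries, a difference of 0.72 (exact p = 0.198, adjusted p = 0.223). Replicate 5, with 0 Lsm1 counts, was the low value, and without it the difference was 1.17 (adjusted p = 0.0238). Hnrnpll against Hnrnpl differed by -0.41 (adjusted p = 0.173), and by -0.58 without Trpm7 cKO replicate 1 (adjusted p = 0.0408). Srsf7 against Srsf3 differed by -0.19 (adjusted p = 0.262, exact permutation).

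**Figure D4:**
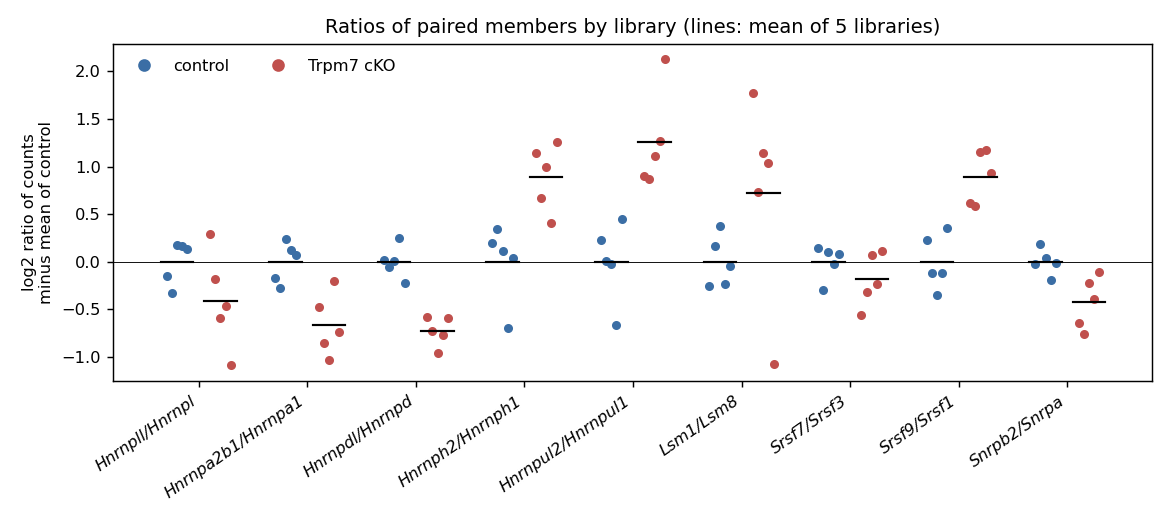
Log2 ratio of counts of each pair in each library, drawn relative to the control mean of that pair (y axis), for control (blue) and Trpm7 cKO (red), with lines at the mean of 5 libraries. Hnrnph2/Hnrnph1, Hnrnpul2/Hnrnpul1 and Srsf9/Srsf1 lie above the control values and Hnrnpdl/Hnrnpd below them, and the low Lsm1/Lsm8 point is Trpm7 cKO replicate 5.

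The 7 members that the filter removed had few counts, here in replicates 1 to 5. Snrpn, the imprinted neuronal SmB relative, had 8, 9, 5, 9 and 6 counts in control and 0, 0, 0, 2 and 0 in Trpm7 cKO libraries. Lsm3 had 10, 25, 13, 13 and 13 and 8, 10, 2, 1 and 0, Lsm14b 18, 11, 7, 14 and 7 and 6, 4, 5, 10 and 2, and Lsm11, the second Lsm protein of the U7 snRNP, 9, 3, 2, 7 and 2 and 5, 4, 2, 6 and 4. Many of the Trpm7 cKO values are at or near the 3 counts that a count of 0 allows. Snrpn had 5.36 to 9.29 CPM in control and 0 to 3.31 in Trpm7 cKO libraries, without overlap, but was not tested. Its 0 in Trpm7 cKO replicate 5 allows up to 16.6 CPM. Snrpf had 5, 6, 2, 3 and 3 and 1, 2, 3, 3 and 1, Srsf12 2, 3, 2, 1 and 2 and 4, 1, 2, 0 and 1, and Srsf4 2, 0, 1, 1 and 2 and 0, 0, 0, 0 and 0. The 3′ ends of Snrpf and Srsf4 are wholly shared with other loci and overlap Ccdc38 and Gm12992 on the opposite strand, so their counts are uncertain.

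Other genes of the pathway, from lists drawn up for this purpose, are set here beside the 24.1% lower and 24.6% higher of all genes tested. Among 77 tested genes of other snRNP and spliceosome proteins, 20 fell (26.0%, near the share of all genes) and 12 rose (15.6%), with a median log2 fold change of -0.11. Phf5a, a further SF3B subunit, had a log2 fold change of -1.57 ± 0.20 (SE, CPM 183 to 325 in control and 64.4 to 118 in Trpm7 cKO), and U2af2, which reads the polypyrimidine tract, -1.19 ± 0.14. Ddx23, the U5 helicase, rose by 1.24 ± 0.30 and the U1-associated Luc7l3 by 1.05 ± 0.17. Among 18 tested genes of snRNP assembly and snRNA maturation, 8 fell (44.4%) and 1 rose (5.56%), with a median of -0.49. Of the 8, Smn1, Gemin5, Gemin6, Wdr77 and Clns1a belong to the SMN and PRMT5 complexes, which load Sm rings onto snRNA, whereas Ncbp1 and Ncbp2 encode the nuclear cap-binding complex and Larp7 a protein of the 7SK particle. Gemin6 of the SMN complex had -1.70 ± 0.23 and Clns1a, which hands Sm proteins to PRMT5, -1.16 ± 0.19, whereas Mepce, the capping enzyme of 7SK RNA, rose by 1.07 ± 0.26.

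Lists of regulators had shares close to those of all genes. Of 26 tested SR-related proteins and SR protein kinases, 5 fell (19.2%) and 7 rose (26.9%), with a median of 0.12. The kinase gene Clk4, whose product phosphorylates SR proteins, rose, with 29.1 to 70.2 CPM in control and 94.4 to 240.2 in Trpm7 cKO libraries (log2 fold change 1.79 ± 0.26 (SE), adjusted p = 2.34e-05), and Tra2b, an SR-like activator of exons, had 247 to 285 and 374 to 646 (log2 fold change 1.11 ± 0.15 (SE), adjusted p = 5.77e-06). Srrt (-0.67 ± 0.14) and the kinase gene Dyrk1a (-0.73 ± 0.18) fell. Of 42 tested RNA-binding regulators outside these families, 9 fell (21.4%) and 12 rose (28.6%), with a median of 0.15. Rbm24, a regulator of muscle splicing, had the lowest log2 fold change of the listed splicing genes, 413 to 497 CPM in control and 44.1 to 59.1 in Trpm7 cKO (log2 fold change -3.0 ± 0.15 (SE), adjusted p = 2.02e-11). Khsrp fell (-1.37 ± 0.19), while Rbm20, known for titin splicing, and Rbm47 rose (2.31 ± 0.31 and 3.60 ± 0.45), both from low levels in control (5.79 to 13.4 and 0.994 to 5.16 CPM). Rbm20 and Rbm47 could pass the low-count filter only through the Trpm7 cKO libraries, where they were high. The count of 12 rises in this list thus partly follows from the filter.

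The counts of calls moved with the scaling of the libraries. The median of all genes tested was -0.01 as reported, 0.10 with total counts alone, -0.29 with scaling on MuSC identity genes and -0.20 when genes with at least 1 count were kept. A scaling moves every gene by about the same amount, so it leaves the distance between 2 medians as it was. Settings that can change that distance gave a core median less that of all genes of -0.55 with thinned counts and -0.32 to -0.44 with a library left out, against -0.38 as reported. The split of calls over all genes moved with the scaling too, 50.6% of them being higher as reported, 59.0% with total counts, 33.6% with MuSC identity scaling and 37.7% with genes of at least 1 count. Srsf5 and Hnrnph2 stayed higher and passed under each of these, whereas Hnrnph1 and Hnrnpul2 did not pass with MuSC identity scaling (0.21, adjusted p = 0.427, and 0.51, adjusted p = 0.128). Hnrnpa1 did not pass with that scaling, and neither Hnrnpa1 nor Hnrnph1 passed when genes with at least 1 count were kept. With the mean log2 CPM of leukocyte markers as a covariate, 0 of the 26 member calls passed the adjusted threshold, while the median log2 fold change was -0.44 over the core genes, 0.20 over the SR genes and -0.04 over the hnRNP genes, against -0.03 over all genes. This score was 3.71 to 4.30 in control and 5.47 to 7.37 in Trpm7 cKO libraries, so that it and genotype cannot be told apart. In that fit 137 genes fell and 388 rose over all genes.

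**Figure D5:**
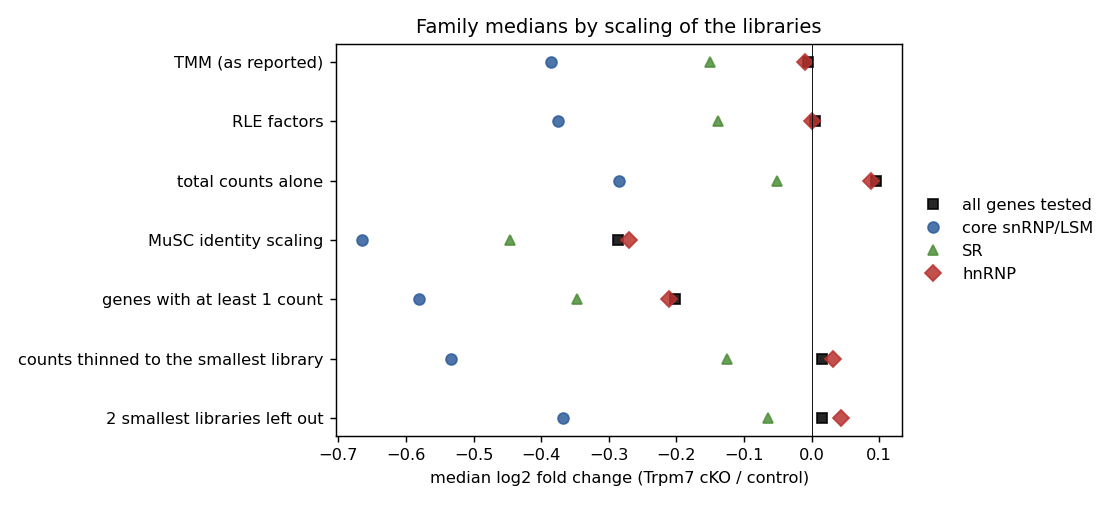
Median log2 fold change, Trpm7 cKO over control, of all genes tested (squares) and of each family (circles core snRNP/LSM, triangles SR, diamonds hnRNP) under 7 ways of scaling or selecting the libraries. The hnRNP median lies beside that of all genes and the core median below both in each, which rescaling alone cannot change.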

How the data were processed

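RNA-seq libraries of sorted MuSCs of 5 control and 5 Trpm7 cKO replicates were analysed as the authors deposited them. The authors extracted barcodes and molecular identifiers with UMI-tools 1.1.4, trimmed reads with Trim Galore 0.6.10, aligned them to GRCm38 with HISAT2 2.2.1, counted them on genes with featureCounts 2.0.6 and removed duplicate molecules, so the deposited values are whole-number counts per gene without normalization. Which annotation release was counted, and whether by strand, is not given in the sources used here. The study's own test was DESeq2 1.30.1 with a log2 fold change of 1.5 and an adjusted p of 0.05.

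Counts were tested with edgeR 4.0.16 in R 4.3.3 (TMM factors, robust quasi-likelihood fit, two-sided F test, genotype as the only term). The filter filterByExpr, with a minimum count of 10 and a minimum total of 15, kept 7753 of 24608 symbols. The table has 24620 entries, and for the 12 symbols listed again the entry with the larger total was used. Normalized CPM are counts over the TMM-scaled total of the tested genes. The SE of a log2 fold change was taken from the F statistic. Ratios of members used a pseudocount of 0.5 and exact permutation tests. Alternatives were DESeq2 1.42.0, limma-voom (limma 3.58.1), other scalings, filters, thinned counts, covariates, a replicate block and libraries left out in turn. The fit was tested on simulated counts before use. Same-genotype libraries were compared in pairs, each pair differed beyond sampling noise, and none was merged, but the labels do not say that each came from its own animal, so p-values measure the spread between these libraries. Library totals of 205986 to 1097709 limit precision, and floors of 3 counts cover counting error only. Shared 3′ sequence was found as 31-base matches in the last 500 transcript bases of the GENCODE M21 annotation of GRCm38, in which all 65 members were found. Promoter windows came from RefSeq on GRCm38.p6 and were matched by symbol for 56 members, the other 9 having no entry.

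The members, lists, pairs and motifs were chosen with earlier results of these data known. Members were to be named where they had the 3 highest or 3 lowest log2 fold changes or the 3 highest control levels of their family, passed both thresholds, belonged to a pair or were removed by the filter, and the rest are given so that each is accounted for. In the other splicing lists, of the genes past the adjusted p the 2 with the highest and the 2 with the lowest values are named. Exon use, proteins and the other experiments of the study were not analysed here.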

Additional observations from a re-analysis of the deposited data

Results flagged for a closer look

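In 6 of 98 groups of 5 values, 1 library stood apart from the 4 others by Dixon's criterion, where chance gives about 1 in 20 groups. In control replicate 5, Hnrnpa2b1 was at 1250.3 CPM (others 1050.2 to 1080.0) and Hnrnph1 at 418 CPM (others 322 to 347). Lsm1 was at 49.3 CPM in control replicate 3 (others 33.6 to 37.1) and Snrpb at 338 CPM in control replicate 1 (others 292 to 300.3). In the Trpm7 cKO group, Snrpg was at 171 CPM in replicate 5, the smallest library (others 237 to 256), and Srsf9 at 154 CPM in replicate 4 (others 96.1 to 112). The calls of Snrpg and Hnrnph1 were kept without these libraries.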

How the results depend on the processing

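The 13 lower core calls became 13 to 19 under the alternatives other than the leukocyte covariate, which left 0 lower core, 0 lower and 0 higher SR, and 0 lower and 0 higher hnRNP calls, the cause not being tested. Core genes higher were 1 with total counts alone and 0 to 1 with a library left out (1 without Trpm7 cKO replicate 4). SR genes lower were 1 with thinned counts, and hnRNP genes higher were 1 with MuSC identity scaling and 2 with genes of at least 1 count. Left-out libraries gave 13 to 14 lower core, 5 to 6 lower hnRNP and 3 to 5 higher hnRNP calls. Without the 2 smallest libraries, Trpm7 cKO replicates 3 and 5 (chosen after seeing the data), the core, SR and hnRNP calls were 13 lower, 2 lower with 1 higher, and 6 lower with 3 higher. Directions were compared only for the members selected by fold change, control level, threshold or pair. Those that turned belonged to members whose change had not passed, with 2 exceptions. With MuSC identity scaling these were Hnrnpd -0.0022, Hnrnpl -0.21, Sf3b1 -0.045, Srsf3 -0.19 and Srsf9 -0.065; with genes of at least 1 count Hnrnpl -0.16, Srsf3 -0.083 and Srsf9 -0.024; with DESeq2 Hnrnpl -0.028; with thinned counts Srsf2 0.089. With the leukocyte covariate they were Hnrnpl -0.085, Hnrnpll 0.38, Lsm5 -1.35, Snrpc -0.063, Srsf2 0.20, Srsf6 0.058, Srsf7 0.21, Srsf9 -0.52 and the exceptions Hnrnpul1 0.026 and Hnrnpul2 -0.0080. Srsf3 was -0.0030 to 0.21 with a library left out. Among members outside that selection, Hnrnpa3 (-0.044) and Sf3b3 (-0.047) also turned with DESeq2, and neither had passed. The log2 ratio of Lsm1 to Lsm8 passed with a pseudocount of 1 (0.91) and with Trpm7 cKO replicates 4 and 5, whose library names share a number of unstated meaning, summed (1.13), and was 0.46 to 1.17 with a library left out. That of Hnrnpll to Hnrnpl was -0.58 to -0.24. Replicate numbers did not pair the libraries, since same-numbered libraries had correlations of deviations of -0.12 to 0.18, and 1 of 5 correlated best with its own number. With the replicate block, the family counts were 13 lower core, 2 lower and 1 higher SR, and 5 lower and 4 higher hnRNP calls. The block left the ratios of Hnrnpa2b1/Hnrnpa1 (-0.66), Hnrnpdl/Hnrnpd (-0.72), Hnrnph2/Hnrnph1 (0.89), Hnrnpul2/Hnrnpul1 (1.25), Srsf9/Srsf1 (0.89) and Snrpb2/Snrpa (-0.42) at an exact p of 0.0625, the smallest that 5 pairs allow. Low counts limit Hnrnph2, Snrpc, Lsm1, Lsm10 and the members removed by the filter, among others.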
